A study of Homo sapiens with 6 samples.

Results

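Stress granules (SGs) are cytoplasmic assemblies of stalled translation initiation complexes, mRNA and RNA-binding proteins that form when translation initiation is blocked, as in cells under oxidative stress. G3BP1 and G3BP2 act as the RNA-binding scaffold of the granule, CAPRIN1 and USP10 compete for the same surface of G3BP and respectively favor and oppose assembly, and TIA1, TIAL1, ATXN2, ATXN2L, FMR1 and FXR1 are RNA-binding proteins that join it. DDX3X, an RNA helicase of the DEAD-box family, binds mRNA and initiation factors and is itself a component of these granules.

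To ask whether the mRNAs of these SG core proteins differed between cells with less DDX3X and cells with added wild-type or mutant DDX3X, the levels of 10 genes (G3BP1, G3BP2, CAPRIN1, TIA1, TIAL1, ATXN2, ATXN2L, USP10, FMR1 and FXR1) were taken from RNA-seq of HEK293T cells. The genes were chosen by symbol, as proteins known to build the granule, with earlier results of these data known. All 10 were found among the 23204 gene symbols of each of the 6 libraries, and each symbol was represented by its transcript row with the highest mean level (28 rows carry these symbols).

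HEK293T is a human embryonic kidney line. The siRNA arm holds cells given control siRNA or DDX3X siRNA for 48 h, and for these no sorting was described. In the plasmid arm, cells were transiently transfected with 5 µg of plasmid encoding GFP alone, GFP-DDX3X wild type (WT), GFP-DDX3X T275M or GFP-DDX3X G302V, kept for 32 h, and sorted for GFP by flow cytometry. These cells keep their own DDX3X gene, so every GFP-DDX3X library is of cells with wild-type DDX3X as well. Each of the 6 groups is 1 library, so no difference below has a replicate check and no test between conditions was made.

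The 6 libraries held 43720000 to 180870000 reads, with DDX3X siRNA the deepest. Levels are in reads per kilobase of transcript per 1000000 reads (RPKM), and a difference between libraries is the log2 ratio of RPKM + 1. Its 95% counting interval was computed from the reads behind the values. The study's methods state that duplicates were removed in mapping, and remaining PCR copies could not be looked for in the values. The intervals cover counting error only and not the spread between cultures. The sample labels also give the cell type as neuronal. Of 14 neuronal markers, 7 were under 1 RPKM in every library (ELAVL4 was listed at 0 in each), whereas the neurofilament genes NEFM and NEFL stood at 514 to 683 RPKM and 109 to 140 RPKM. The summed neuronal markers ranged from 642 RPKM (WT) to 838 RPKM (GFP). Of 8 kidney and epithelial markers, 3 (PAX2, PAX8 and EPCAM) were under 1 RPKM throughout, and the sum ran from 260 RPKM (DDX3X siRNA) to 331 RPKM (G302V), of which VIM, also a mesenchymal marker, made up 213 to 277 RPKM. The part of these marker levels in the results below was not tested.

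The targeted gene followed the labels. DDX3X stood at 107 RPKM with control siRNA and 31.3 RPKM with DDX3X siRNA, a log2 ratio of -1.74 (95% counting interval -1.76 to -1.72). It stood at 119 RPKM in the GFP library, 2894 RPKM in WT, 3279 RPKM in T275M and 1906 RPKM in G302V, so the plasmids were not expressed to the same level. The codons that the mutants change are given below from the GRCh37 reference, in the coding direction with the changed codon in capitals. T275M lies in exon 9 of the DDX3X transcript (chrX:41203328-41203354, plus strand) and G302V in exon 10 (chrX:41203519-41203545, plus strand).
DDX3X T275: gtattagcaccaACGagagagttggca
DDX3X G302: tgcgtggtttatGGTggtgccgatatt

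The FGDF motif of USP10 and the glutamine run of ATXN2 are shown as features of the members' own coding sequences. The part of these features in the granule was not tested. USP10 binds the NTF2-like domain of G3BP through a short FGDF motif, and a search of the translated reference transcripts for these 4 residues found 1 match in USP10, at codons 10 to 13 in exon 2 (chr16:84767041-84767067, plus strand), and none in the other 9 members. ATXN2 is named for its glutamine repeat, which expands in spinocerebellar ataxia. Its longest glutamine run in the reference spans 23 codons (codons 6 to 28, in exon 1), interrupted once by a CAA among CAG codons, and the stretch around that codon is printed with CAA in capitals (chr12:112036770-112036796, minus strand). The closest relative, ATXN2L, has no glutamine run above 2 residues.
USP10 FGDF: tatattTTTGGAGATTTTagccctgat
ATXN2 CAA: cagcagcagcagCAAcagcagcagcag
RGG tripeptides, a feature of disordered RNA-binding tails, occurred 3 times in CAPRIN1 and 2 times each in G3BP1, G3BP2, ATXN2L, FMR1 and FXR1, and were not matched in TIA1, TIAL1, ATXN2 or USP10.

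The genes are spread over the genome. By the GRCh37 annotation, G3BP1 spans chr5:151150606-151192472 (plus strand, 12 exons, 466 codons) and G3BP2 chr4:76567033-76649773 (minus strand, 12 exons, 482 codons). CAPRIN1 spans chr11:34073278-34124157 (plus strand, 19 exons, 709 codons). TIA1 lies at chr2:70436576-70475792 (minus strand, 13 exons, 386 codons) and TIAL1 at chr10:121331314-121356541 (minus strand, 12 exons, 375 codons). ATXN2 spans chr12:111881289-112037480 (minus strand, 25 exons, 1155 codons), ATXN2L chr16:28834320-28848558 (plus strand, 22 exons, 1075 codons) and USP10 chr16:84733592-84813528 (plus strand, 14 exons, 798 codons). FMR1 lies at chrX:146993437-147032645 (plus strand, 17 exons, 632 codons) and FXR1 at chr3:180585929-180700541 (plus strand, 17 exons, 621 codons).

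All 10 mRNAs were present in every library, and their mean levels spanned a wider range than any of them did between libraries. By mean RPKM, which is per length, the order was G3BP1 (107 RPKM), CAPRIN1 (91.2), ATXN2L (70.4), G3BP2 (61.2), USP10 (51.2), TIAL1 (30.9), FMR1 (26.6), FXR1 (21.5), TIA1 (18.9) and ATXN2 (15.8). G3BP1 ranked 787 and ATXN2 5235 among the 12713 genes with a mean of at least 1 RPKM. The summed level of the 10 genes lay between 485 RPKM (G302V) and 505 RPKM (T275M). In reads, the 10 rows together took 1894 of every 1000000 with control siRNA (95% Poisson interval 1883 to 1904) and 1860 with DDX3X siRNA (1854 to 1867). They took 1906 with GFP alone (1895 to 1918), 1927 with WT (1916 to 1938), 1961 with T275M (1948 to 1973) and 1875 with G302V (1862 to 1887).

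**Figure D1:**
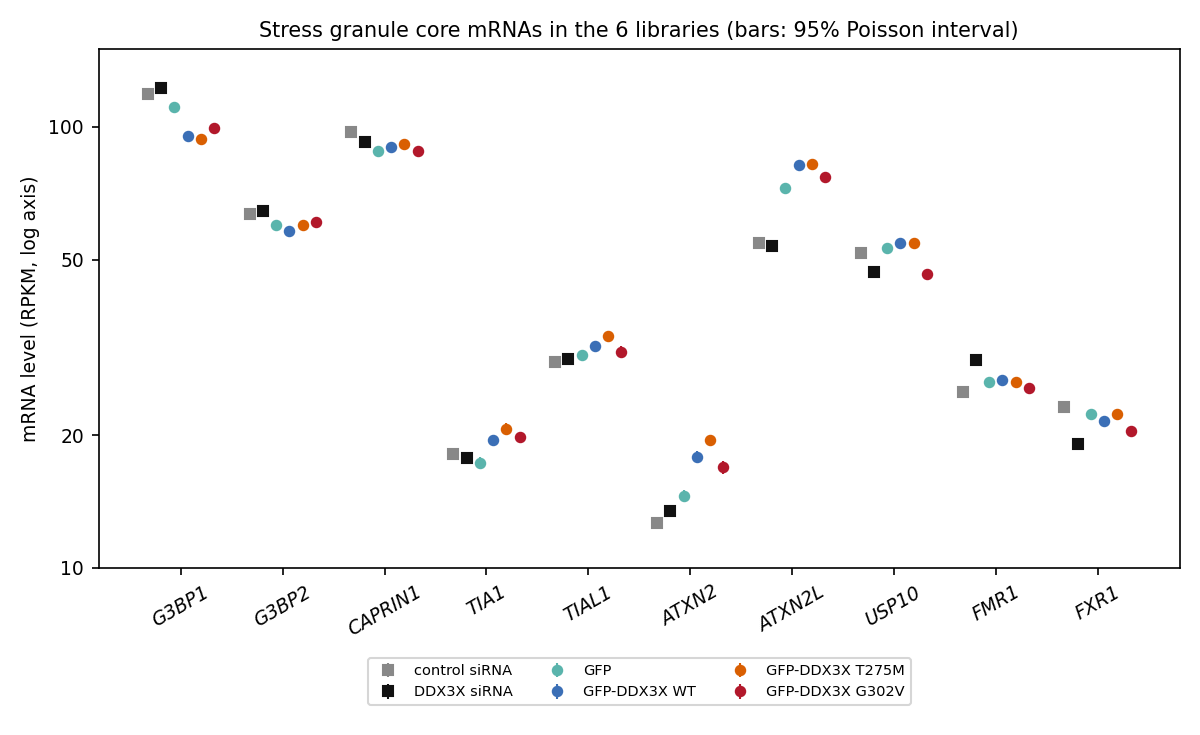
mRNA level of the 10 SG core genes in RPKM (log axis), 1 point per library, with squares for the siRNA arm, circles for the plasmid arm and bars for the 95% Poisson interval, which is mostly smaller than the symbol. ATXN2L runs from 53.7 to 82.3 RPKM and ATXN2 from 12.7 to 19.5 RPKM, while CAPRIN1 stays between 88.1 and 97.4 RPKM.

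G3BP1 stood at 119 RPKM with control siRNA, 122 RPKM with DDX3X siRNA, 111 RPKM with GFP alone, 95.6 RPKM with WT, 94.1 RPKM in T275M and 99.2 RPKM in G302V. The 3 GFP-DDX3X libraries were thus the lowest of the 6, and the siRNA libraries the highest. Its log2 ratio to GFP was -0.22 in WT (95% counting interval -0.25 to -0.19), -0.24 in T275M (-0.27 to -0.21) and -0.16 in G302V (-0.20 to -0.13), and these 3 comparisons share the 1 GFP library. When the libraries were scaled by their median ratio instead of their totals, the same ratios were -0.31, -0.33 and -0.20. With DDX3X siRNA the ratio to control siRNA was 0.04 (0.02 to 0.07). G3BP2, the paralog with the same scaffold role, stayed between 58.1 RPKM (WT) and 64.6 RPKM (DDX3X siRNA), with log2 ratios of -0.04 in WT, 0.00 in T275M, 0.02 in G302V and 0.02 in DDX3X siRNA. Under the median-ratio scaling these were -0.13, -0.09, -0.02 and 0.10, so the sign in T275M and G302V depends on the scaling. Among its 5 pairs of neighbors in the order of levels, 4 had overlapping Poisson intervals.

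The partners that bind G3BP were CAPRIN1 and USP10. CAPRIN1 stood at 97.4 RPKM with control siRNA and 92.4 RPKM with DDX3X siRNA (log2 ratio -0.08, -0.10 to -0.05, and 0.00 under the median-ratio scaling) and between 88.1 and 91.2 RPKM in the plasmid arm, where its 3 ratios to GFP ran from 0.00 to 0.05 and those of WT and T275M were -0.06 and -0.04 under the median-ratio scaling. USP10, a deubiquitinase, stood at 51.7 RPKM with control siRNA, 46.9 RPKM with DDX3X siRNA, 53.0 RPKM with GFP alone, 54.6 RPKM with WT, 54.6 RPKM with T275M and 46.3 RPKM with G302V. G302V was the low library of the plasmid arm. USP10 had a log2 ratio to GFP of 0.04 in WT (0.00 to 0.08), 0.04 in T275M (0.00 to 0.08) and -0.19 in G302V (-0.23 to -0.15). Under the median-ratio scaling these were -0.05, -0.05 and -0.23, so the sign in WT and T275M depends on the scaling. The ratio was -0.23 in G302V against WT (-0.27 to -0.19). The difference with DDX3X siRNA was -0.14 (-0.17 to -0.11), or -0.06 under the median-ratio scaling.

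TIA1 and TIAL1 carry RNA recognition motifs and a prion-like tail that drives aggregation. TIA1 stood at 18.1 RPKM with control siRNA, 17.8 RPKM with DDX3X siRNA, 17.3 RPKM with GFP alone, 19.5 RPKM with WT, 20.7 RPKM in T275M and 19.8 RPKM in G302V. The 3 GFP-DDX3X libraries were the highest, with log2 ratios to GFP of 0.16 (0.11 to 0.22), 0.25 (0.19 to 0.30) and 0.18 (0.12 to 0.24), or 0.08, 0.16 and 0.14 under the median-ratio scaling. TIAL1 lay between 29.3 RPKM (control siRNA) and 33.5 RPKM (T275M), with ratios to GFP of 0.06 in WT, 0.13 in T275M and 0.02 in G302V (-0.03, 0.05 and -0.02 under the median-ratio scaling). With DDX3X siRNA the log2 ratio was -0.03 for TIA1 and 0.02 for TIAL1, each interval including 0, and 0.04 and 0.09 under the median-ratio scaling.

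ATXN2 and ATXN2L, which hold an LSm domain and bind poly(A)-binding protein, had the widest ranges of the 10. ATXN2 stood at 12.7 RPKM with control siRNA, 13.5 RPKM with DDX3X siRNA, 14.6 RPKM with GFP alone, 17.9 RPKM with WT, 19.5 RPKM with T275M and 16.9 RPKM with G302V. All 4 plasmid libraries were above both siRNA libraries, and the GFP-DDX3X libraries were above GFP alone. ATXN2 had a log2 ratio to GFP of 0.28 in WT (0.22 to 0.34), 0.40 in T275M (0.34 to 0.46) and 0.20 in G302V (0.14 to 0.27), or 0.19, 0.31 and 0.17 under the median-ratio scaling. With an absolute log2 ratio of 0.32 taken as the threshold for a change (25% higher or 20% lower on the RPKM + 1 scale), ATXN2 rose in T275M, by 33.9% in RPKM. Under the median-ratio scaling (0.31) and with a pseudocount of 10 RPKM (0.26) it was below the threshold. It was also higher in T275M than in WT, by 0.12 (0.06 to 0.17), under that threshold.

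ATXN2L stood at 54.4 RPKM with control siRNA, 53.7 RPKM with DDX3X siRNA, 72.9 RPKM with GFP alone, 82.1 RPKM with WT, 82.3 RPKM with T275M and 77.0 RPKM with G302V. Here the arms separated, with the siRNA libraries at the bottom and the 4 plasmid libraries at the top. The log2 ratio of the controls, GFP alone against control siRNA, was 0.41 (0.38 to 0.45) and passed the threshold, and plasmid, sorting and time of culture differ together between these cells and cannot be told apart. Against GFP, the ratio was 0.17 in WT (0.14 to 0.20), 0.17 in T275M (0.14 to 0.21) and 0.08 in G302V (0.04 to 0.11), or 0.08, 0.08 and 0.04 under the median-ratio scaling.

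FMR1 and FXR1, related KH-domain proteins that bind mRNA and repress translation, differed in opposite directions in the siRNA arm. FMR1 stood at 25.03 RPKM with control siRNA, 29.6 RPKM with DDX3X siRNA, 26.3 RPKM with GFP alone, 26.7 RPKM with WT, 26.4 RPKM with T275M and 25.6 RPKM with G302V. FXR1 stood at 23.2 RPKM with control siRNA, 19.1 RPKM with DDX3X siRNA, 22.3 RPKM with GFP alone, 21.5 RPKM with WT, 22.3 RPKM with T275M and 20.4 RPKM with G302V. Thus DDX3X siRNA was the highest library for FMR1 and the lowest for FXR1. Their log2 ratios to control siRNA were 0.23 (0.20 to 0.27) and -0.27 (-0.30 to -0.24), both under the threshold, and 0.30 and -0.20 under the median-ratio scaling. Among all genes they stood at the 86.4 and 12.01 percentiles. In the plasmid arm the ratios to GFP ran from -0.04 to 0.02 for FMR1 (all 3 below 0 under the median-ratio scaling) and from -0.12 to 0.00 for FXR1. The antisense neighbor of FMR1, FMR1-AS1, which shares 0 exon bases with the reference FMR1 transcript, stood at 1.51 to 1.91 RPKM. Whether reads of FMR1 count in the FMR1-AS1 rows was not tested.

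**Figure D2:**
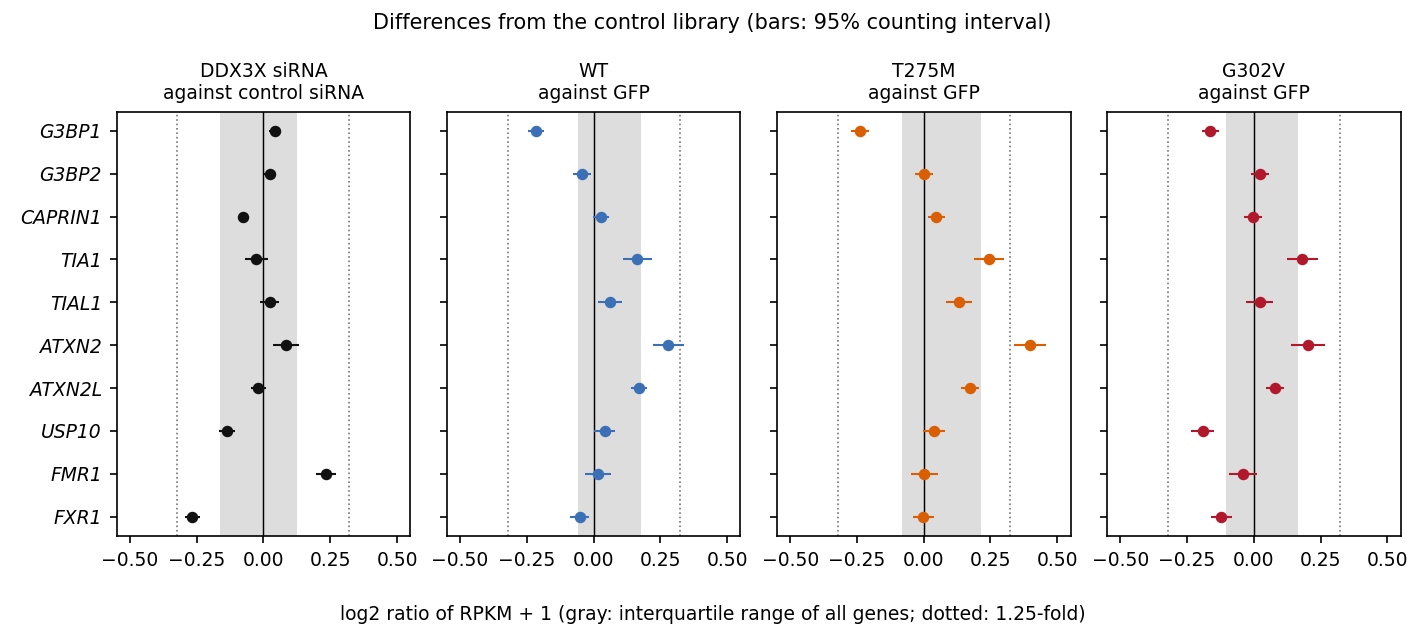
Log2 ratios of RPKM + 1 for the 10 genes in DDX3X siRNA against control siRNA and in each GFP-DDX3X library against the shared GFP library. Bars are 95% counting intervals, the gray band is the interquartile range of all genes tested and dotted lines mark the threshold of 0.32. Of the points, ATXN2 in T275M (0.40) lies outside the dotted lines, and G3BP1 is lower than GFP in all 3 GFP-DDX3X libraries.

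Since both members of a paralog pair are read in the same library, their ratio does not depend on library scaling. G3BP1/G3BP2 was 1.87 with control siRNA (95% counting interval 1.83 to 1.91), 1.89 with DDX3X siRNA (1.87 to 1.92) and 1.85 with GFP alone (1.81 to 1.90). It was 1.64 with WT (1.61 to 1.68), 1.57 with T275M (1.53 to 1.61) and 1.63 with G302V (1.59 to 1.67), so the intervals of the 3 GFP-DDX3X libraries did not overlap those of the other 3 libraries. FMR1/FXR1 was 1.08 with control siRNA (1.05 to 1.11) and 1.55 with DDX3X siRNA (1.52 to 1.58). In the plasmid arm it was 1.18 with GFP alone, 1.24 with WT and 1.18 with T275M, and the interval of G302V was 1.21 to 1.30. DDX3X siRNA stood apart from the other 5 libraries for this pair. ATXN2L/ATXN2 ran from 3.98 (DDX3X siRNA) to 5.01 (GFP alone), with 4.59 in WT, 4.22 in T275M and 4.55 in G302V. Its GFP interval (4.83 to 5.19) lay above those of all other libraries, the nearest being WT (4.46 to 4.74). TIAL1/TIA1 ran from 1.57 (G302V) to 1.76 (GFP alone), and the GFP interval (1.694 to 1.829) overlapped that of DDX3X siRNA (1.640 to 1.711). It lay above the intervals of control siRNA (upper end 1.673), WT (1.689), T275M (1.681) and G302V (1.631). For these pairs the GFP library, shared by the plasmid comparisons, was thus the highest.

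**Figure D3:**
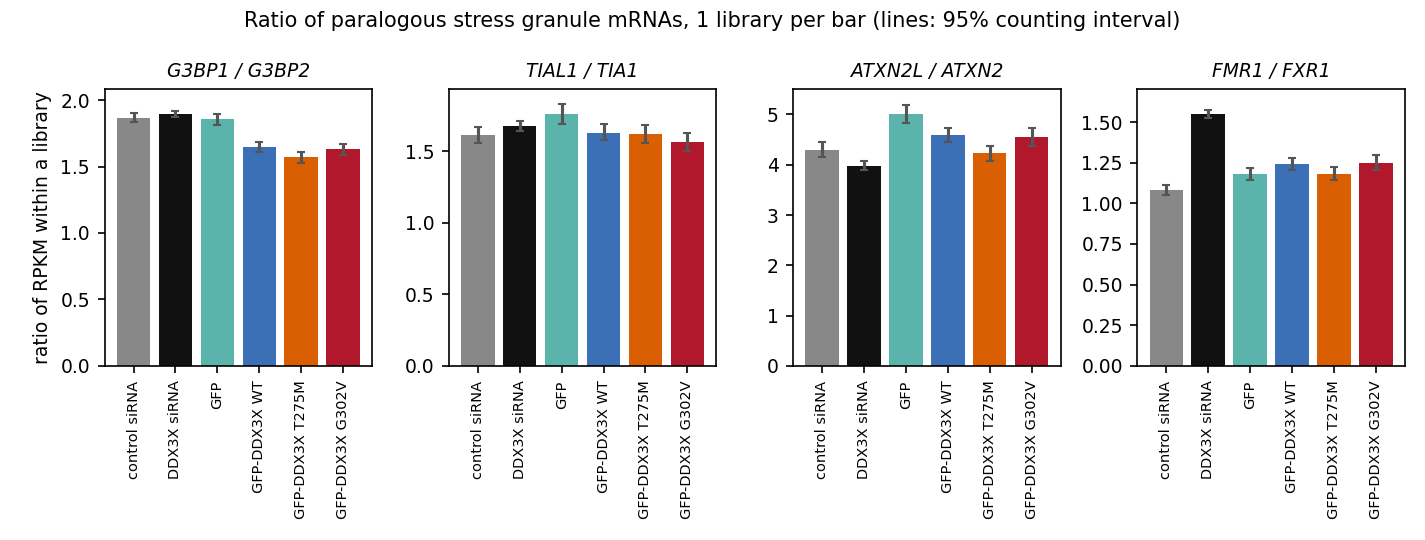
Ratio of RPKM within each library for the 4 paralog pairs, 1 bar per library with its 95% counting interval. G3BP1/G3BP2 is 1.57 to 1.64 in the GFP-DDX3X libraries and 1.85 to 1.89 in the others, and FMR1/FXR1 reaches 1.55 in DDX3X siRNA.

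The proteins of these pairs, translated from the reference transcripts, were identical at 69.5% of aligned residues for G3BP1 and G3BP2, 81.3% for TIA1 and TIAL1, 47.5% for ATXN2 and ATXN2L and 66.4% for FMR1 and FXR1. At the transcript level the longest identical stretch was 28 bases (TIA1 and TIAL1) and 16 to 17 bases in the other 3 pairs. Where a gene had several rows, they can count the same reads, so their likeness is no separate check of a difference. The widest spread was 0.05, for CAPRIN1 in G302V against WT (-0.03 and 0.02, rows of 3553 and 5562 bases). In 5 cases of small ratios the sign differed between rows of a gene. Overlap with exons of other genes was found for ATXN2L and TIA1, and whether reads of those genes count in the rows was not tested. The exons of ATXN2L overlap 2 annotated genes, the larger overlap being 560 bases (12.6%) with a gene on the opposite strand. Those of TIA1 share 211 bases (4.55%) with C2orf42.

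By its median, the list of SG core mRNAs lay close to the center of all genes in every comparison. Single members lay further out. Against GFP, G3BP1 stood at percentile 4.82 of all genes in WT, 7.14 in T275M and 15.9 in G302V, and ATXN2 at 92.4 in T275M. ATXN2L stood at 96.9 between the controls. In DDX3X siRNA against control siRNA the members' median log2 ratio was 0.00, beside -0.02 over the 12694 genes tested, with 5 members higher and 5 lower. With median-ratio scaling the members' median was 0.07 (all genes 0.04) and the split 7 higher and 3 lower. None of the 10 passed the threshold, beside 15.1% of all genes, and none passed 1.5-fold, beside 2% of all genes. Such shares of all genes, here and below, count both directions together. Reads were deep enough that counting error alone could not cover most of these small differences, since 7 of 10 intervals left out 0, as did 72.9% of intervals over all genes.

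Against GFP alone, the members' median was 0.03 in WT (all genes 0.05), 0.04 in T275M (0.07) and 0.01 in G302V (0.03). In WT no member passed the threshold, beside 11.1% of all genes, or 1.5-fold, beside 2.21%. In T275M 1 of 10 passed the threshold (ATXN2, higher), beside 15.6% of all genes, and none passed 1.5-fold, beside 2.64%. For G302V the counts were 0 at the threshold, beside 11.7% of all genes, and 0 at 1.5-fold, beside 1.77%. Members were higher than GFP in 7, 8 and 5 of 10 cases, in that order. Under the median-ratio scaling they were higher in 3, 4 and 3 of 10. Their median was then -0.06 in WT (all genes -0.03) and -0.05 in T275M (all genes -0.01), so the majority direction in WT and T275M depends on the scaling.

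The mutants were also compared with WT. In T275M against WT the members' median was 0.03 (all genes 0.00), the differences ran from -0.02 (G3BP1) to 0.12 (ATXN2), and none passed the threshold or 1.5-fold, beside 2.27% and 0.347% of all genes. In G302V against WT the median was -0.05 (all genes -0.03), from -0.23 (USP10) to 0.07 (G3BP2), and again none passed the threshold, beside 10.8% of all genes, or 1.5-fold, beside 1.76%. Between the controls, GFP alone against control siRNA, the members' median was -0.01 (all genes 0.01), with 1 of 10 past the threshold (ATXN2L, higher), beside 14.1% of all genes, and none past 1.5-fold, beside 2.33%. Of the 70 ratios of a single member computed in the 7 comparisons, ATXN2L between the controls (0.41) was the largest.

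**Figure D4:**
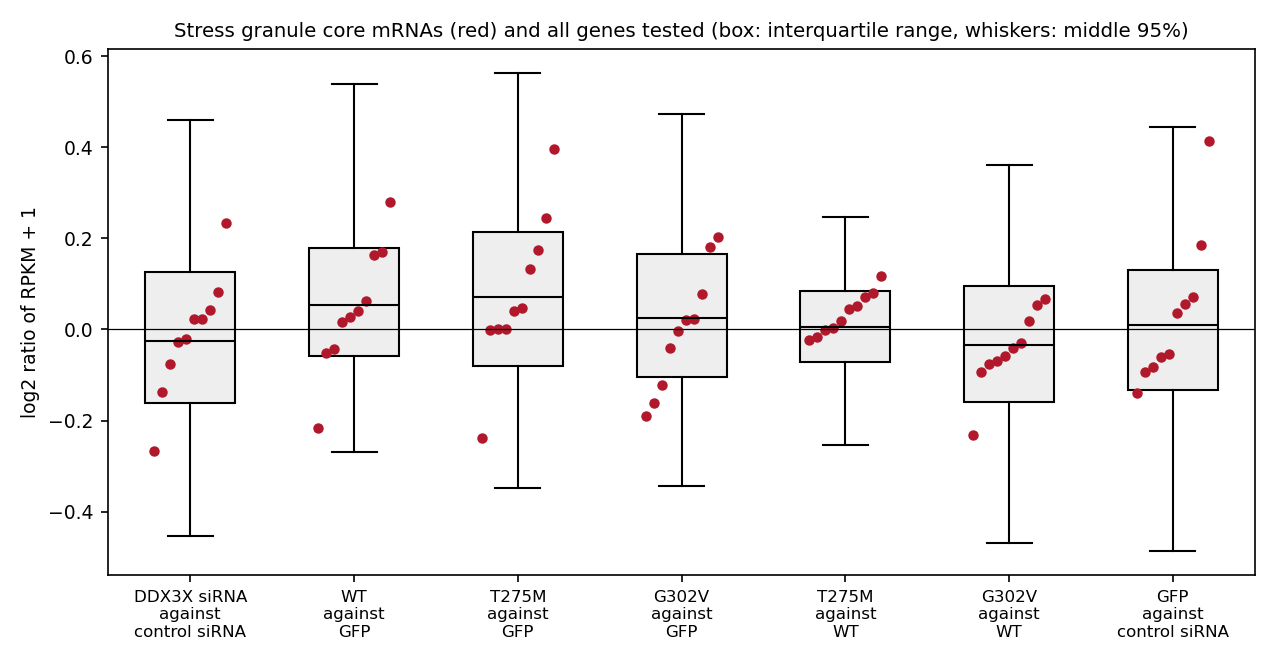
Log2 ratios of the 10 SG core genes (red points) over all genes tested in each of 7 comparisons, with boxes at the interquartile range, a line at the median and whiskers at the middle 95% of genes. Between 5 and 9 of the 10 points lie inside the box in each comparison, and every point lies inside the whiskers.

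Over the 6 libraries, the range of log2(RPKM + 1) was 0.61 for ATXN2L, 0.58 for ATXN2 and 0.37 for G3BP1, and 0.14 (CAPRIN1) to 0.27 (FXR1) for the other 7. Those 7 were below the median range of 0.34 of the 6944 genes with a mean of at least 10 RPKM, and the members' median range was 0.24. For ATXN2L, the member with the widest range, the 3 genes with the most similar pattern among 1524 candidates were FAM193B (Pearson r = 0.999 over the 6 libraries), LRCH4 (0.997) and ISYNA1 (0.996). These correlations describe 6 points that share their libraries and follow mainly the separation of the siRNA and plasmid arms: FAM193B was at 12.1 to 12.3 RPKM in the siRNA arm and 16.6 to 19.3 RPKM in the plasmid arm.

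Other lists of proteins found in or near SGs were read by the same rule. Of 40 other SG RNA-binding proteins, 4 passed the threshold with DDX3X siRNA, beside 15.1% of all genes, and all 4 were lower. Over all 12694 genes, 963 passed lower and 955 higher. The 4 were led by the poly(C)-binding proteins PCBP2 (242 RPKM with control siRNA and 182 RPKM with DDX3X siRNA, log2 ratio -0.41) and PCBP1 (-0.36). Under the median-ratio scaling PCBP2 alone passed, beside 16.2% of all genes. The list's median was -0.05, and 0.02 under that scaling. None of the 40 passed in WT (beside 11.1% of all genes) or T275M (15.6%) against GFP, where IGF2BP3, an mRNA-binding protein of the insulin-like growth factor 2 mRNA-binding family, had the highest ratios (0.24 and 0.32, just under the threshold). After median-ratio scaling, 1 passed in WT and 2 in T275M, all lower, beside 9.72% and 15% of all genes in either direction. In G302V, 3 of 40 passed and were lower, beside 11.7% of all genes in either direction. Of those genes, 406 of 12775 passed lower and 1092 higher. Among the 3 were TAF15 (-0.35) and HNRNPA1 (-0.34), which have prion-like domains. Against WT, G302V had PRRC2C higher (0.40) and TAF15 lower (-0.43), and these were the 2 of 40 that passed, beside 10.8% of all genes. PRRC2C differed between the controls as well, at 28.0 RPKM with GFP alone and 36.9 RPKM with control siRNA (-0.38).

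None of 14 translation factors of SGs passed the threshold in any of the 7 comparisons, beside 2.27% (T275M against WT) to 15.6% (T275M against GFP) of all genes. Their medians were -0.10 with DDX3X siRNA, -0.10 in WT, -0.09 in T275M and -0.08 in G302V against the respective control, and EIF4G1, the initiation scaffold, was the lowest in WT and T275M (-0.31 in both). With libraries scaled by their median ratio, the medians were -0.03, -0.19, -0.18 and -0.12. Under that scaling 2 of 14 passed in WT, beside 9.72% of all genes in either direction, and 3 in T275M, beside 15%. All of these translation factors were lower, with EIF4G1 among them.

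Processing bodies are the decapping and RNA silencing granules that dock to SGs, and 4 of their 25 proteins passed with DDX3X siRNA, which as a share is close to the 15.1% of all genes. Of these 3 were higher, including the Argonaute genes EIF2C2 (11.1 RPKM with control siRNA and 20.9 RPKM with DDX3X siRNA, log2 ratio 0.85) and EIF2C1 (0.41), and LSM14A was lower (-0.33), which did not pass under the median-ratio scaling. Against GFP, 2 were higher and 1 lower in WT, 4 were higher and 1 lower in T275M, and 2 were higher in G302V, beside 11.1%, 15.6% and 11.7% of all genes. The decapping factor DCP1B was higher in WT (0.34) and T275M (0.39), EIF2C2 was higher in G302V (0.49), and the LSm protein LSM4 was lower in WT (-0.36) and T275M (-0.41). Under the median-ratio scaling the counts were 1 higher and 2 lower in WT, 2 higher and 2 lower in T275M and 2 higher and 1 lower in G302V. The shares of all genes under that scaling were 9.72%, 15% and 11.4%. DCP1B then passed in neither WT nor T275M. In G302V against WT, 4 of 25 were higher, led by EIF2C2 (0.47) and DCP2 (0.37), and DCP1B was lower (-0.38). This was beside 10.8% of all genes. The same genes passed under the median-ratio scaling, beside 10.7%. In T275M against WT 0 of 25 passed, beside 2.27% of all genes.

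Phosphorylation of eIF2alpha is a common trigger of SG assembly, although granules can also form without it, and its kinases, phosphatase subunits and substrate form a list of 7 genes. With DDX3X siRNA, 2 of 7 passed the threshold, beside 15.1% of all genes (955 of 12694 higher), both higher, with EIF2AK4 at 0.41. Against GFP, 1 of 7 passed in WT, 2 in T275M and 2 in G302V, all higher, beside 11.1%, 15.6% and 11.7% of all genes. These counts were the same under the median-ratio scaling, beside 9.72%, 15% and 11.4%. With the libraries scaled by their totals, the genes that passed higher were 1240 of 12915 in WT, 1613 of 12912 in T275M and 1092 of 12775 in G302V. PPP1R15A, the stress-induced phosphatase subunit, stood at 10.0 RPKM with GFP alone, 16.8 RPKM with WT, 17.1 RPKM with T275M and 11.3 RPKM with G302V, with log2 ratios to GFP of 0.70 in WT and 0.72 in T275M and of -0.53 in G302V against WT. It differed between the controls as well, by 0.54. EIF2AK2, the kinase activated by double-stranded RNA, was higher in G302V than in GFP alone (0.46) and than in WT (0.35).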

How the data were processed

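The values deposited by the authors were RPKM per RefSeq row, as the file headers state (the methods call them FPKM). Per the study's methods and processing notes, reads were trimmed with cutadapt. They were aligned with BWA 0.5.5 to NCBI Build 37 (hg19), RefSeq, exon junctions and AceView, and duplicates were removed. Counts by gene were scaled for the length of the gene and the total of the library. How reads were shared between rows of a gene is not given in the sources used here.

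The product of RPKM and row length came in steps of a fixed size in each library (100% of checked rows within 0.1 of a whole step), which gave reads and depth. Log2 ratios used RPKM + 1. Genes with 1 RPKM and 10 reads in either library of a pair were compared, and all 10 members passed in each comparison. Intervals are exact (Clopper-Pearson for ratios, Poisson for levels, 95%). With 1 library per group no test was run, and members are described beside all genes. An absolute log2 ratio of 0.32 was counted as a change, with 1.5-fold beside it. The interval script was tested on simulated data.

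Sequences came from GRCh37 with GENCODE v44 lifted to that build. The members and gene lists were chosen with earlier results of these data known. Genes of other lists were named as up to the 2 highest and 2 lowest ratios of each list at 10 RPKM or more, and the 3 genes most like the widest-ranging member by Pearson r. A study plot legend names another mutant in place of T275M, and the labels were followed. Python 3.11.15, numpy 2.4.6, scipy 1.17.1, pandas 2.3.3, biopython 1.88 and matplotlib 3.10.9 were used. Alternatives were other pseudocounts, median-ratio scaling, summed rows, values without length, another fold and other filters.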

Additional observations from a re-analysis of the deposited data

Results flagged for a closer look

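USP10 had opposite signs in a pair of comparisons that share the GFP library: its log2 ratio to GFP was 0.04 in WT and -0.19 in G302V, a difference of 0.23. Each group is 1 library, so the difference was not tested. With median-ratio scaling of the libraries both ratios were below 0, at -0.05 in WT and -0.23 in G302V. USP10 stood at 53.0 RPKM with GFP alone, 54.6 RPKM with WT and 46.3 RPKM with G302V.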

How the results depend on the processing

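No paired analysis was possible because each group is 1 library and the labels give no replicate numbers, so no library could be left out either. Scaling the libraries by their median ratio moved the median of all genes by at most 0.08 and the members' median log2 ratio to 0.0733 with DDX3X siRNA, -0.0560 in WT and -0.0454 in T275M against GFP, and 0.0011 in G302V against WT. That scaling moved 41 of the 70 single-gene ratios by more than their counting error and turned the sign of 15 small ones, among them CAPRIN1, FMR1 and USP10 in WT and T275M. Under it 1 member still passed the threshold in T275M, beside 15% of all genes, but it was G3BP1 (-0.33, lower) in place of ATXN2 (0.31). ATXN2L between the controls (0.43) and the lower G3BP1 in WT (-0.31) and G302V (-0.20) kept their direction. With a pseudocount of 10 RPKM, 0 members passed in T275M, and at 1.5-fold 0 passed in T275M and 0 between the controls. Summing rows turned the sign of 2 values near 0 (FXR1 in T275M and CAPRIN1 in G302V against GFP). A pseudocount of 0.1 RPKM, values without length and the other filters changed no count of members. Reads per member (3477 or more) kept counting error small. The choice of scaling moved many of the ratios by more than that error, and the spread between cultures was not measured here.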
